A study of Mus musculus with 2 samples.

Results

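Basal myoepithelial-like cells were a small epithelial class in the cultured stromal vascular fraction (SVF) of mouse inguinal white adipose tissue (iWAT). They numbered 155 of 29744 kept iWAT cells, or 0.521% (exact 95% binomial interval 0.442 to 0.610). Kept cells were those with over 200 and under 7500 genes detected and with mitochondrial transcripts under 30%. The basal cells were chosen by their own UMI counts: a member was a kept cell with at least 3 unique molecular identifiers (UMIs, each a count of 1 captured transcript) of Krt5, at least 3 UMIs of Krt14 and Col17a1 together, and 0 UMIs of Pdgfra. Krt5 and Krt14 encode the paired keratins of basal epithelial cells, Col17a1 a hemidesmosomal collagen and Pdgfra the receptor that marks fibroblasts and preadipocytes. Values of these 4 genes chose the cells and are given only as a description.

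Per the labels, the SVF came from pooled tissue of wild-type C57BL/6N mice aged 8 to 12 weeks and was grown to 80% confluency, while the published methods give another range of ages. Per the labels, the 4 treatments of 48 h were none, FGF1, FGF2 and FGF8, the FGFs each at 5.5 nM, and 10000 cells of each went into 1 library per depot on a BD Rhapsody cartridge, a microwell system that gives every cell its own barcode. The published methods name vehicle, FGF1 and FGF2 for this assay. The treatment tag of a cell was not available in the matrices used here, so each library is a pool of treatments, no treatment effect was estimated, and the sex and number of mice are not given in the sources used here. The interscapular brown adipose tissue (iBAT) library held 28215 kept cells and 0 cells that met the same rule, which allows a share of up to 0.0106%. In it, Krt5 and Krt14 had 3 UMIs each, and no kept cell held more than 1 UMI of Krt5.

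With 1 library per depot there is no replicate and no test. Levels are given as UMIs of a gene per 1000000 UMIs of a class of cells (CPM), with exact 95% Poisson intervals, and ratios of levels with exact 95% intervals. Both cover counting error only. A gene was called different at 4-fold or more, among genes at 50 CPM or more in at least 1 of the classes compared.

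The mammary gland of the mouse lies within subcutaneous fat pads, the inguinal pad among them. Its ducts have an inner layer of luminal cells, which carry Krt8, Krt18 and Epcam and make milk products, and an outer layer of basal myoepithelial cells. The outer cells combine the keratins and anchoring junctions of a stratified epithelium with the contractile apparatus of smooth muscle, and they shorten in response to oxytocin to eject milk. The transcription factor p63, encoded by Trp63, is a defining regulator of basal epithelia. Basal keratinocytes of the skin share Krt5, Krt14, Col17a1 and Trp63 but are not contractile in the smooth muscle sense, and when they mature they switch on Krt1, Krt10 and cornified envelope genes.

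The 155 cells held 1929309 UMIs in all. A cell had between 6104 and 32010 UMIs, with a median of 11144, and the median number of detected genes was 3596. Scrublet, a doublet caller, marked 3 of the cells (1.94%, 0.401 to 5.55) as likely doublets. The comparison class of luminal cells (at least 1 Epcam UMI, at least 10 UMIs of Krt8 and Krt18 together, fewer than 3 of Krt5 and none of Pdgfra) held 2377 cells, or 7.99% of the kept cells, with a median of 12400 UMIs and 56 likely doublets (2.36%). A stromal gate (at least 3 Pdgfra UMIs and none of Epcam, Krt5 or Krt14) held 6043 cells with a median of 19467 UMIs. A mural-like gate (at least 3 Rgs5 UMIs, at least 1 Notch3 UMI and none of Pdgfra, Krt5 or Epcam) held 37 cells with a median of 13171 UMIs. The mural-like cells carried the fibroblast collagen transcript Col1a1 at a median of 87 UMIs per cell after thinning, the same median as in the stromal gate, so they were not free of stromal transcripts.

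Of 187 kept cells with at least 3 Krt5 UMIs, 178 also met the limit on Krt14 and Col17a1, and 23 of those were left out because they had Pdgfra UMIs. Of the 23 cells, 19 had exactly 1 Pdgfra UMI and 4 were likely doublets. They had Acta2 at 5111 CPM and Krt5 at 631 CPM but Col1a1 at 5410 CPM, against 1608 CPM in the basal cells. Just inside the rule were 9 cells with exactly 3 Krt5 UMIs, in which the oxytocin receptor gene Oxtr was at 66.3 CPM (8 UMIs), Igfbp2 at 116 CPM, Acta2 at 2669 CPM and Trp63 at 8.29 CPM (1 UMI, 0.210 to 46.2). In those 9 cells Lcn2 was at 1981 CPM and Wfdc18 at 928 CPM. Just outside were 20 cells with 2 Krt5 UMIs that met all else. Those cells had Oxtr at 148 CPM, Igfbp2 at 425 CPM, Myh11 at 313 CPM, Trp63 at 26.8 CPM and Acta2 at 4560 CPM.

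The label was compared with marker genes that the rule did not use, as the plot of marker levels by class shows. Of these, Oxtr, Igfbp2 and Myh11 were already named as markers of the class with earlier results of these data known. Their levels describe the class and do not test the label. Oxtr was at 67.9 CPM (56.8 to 80.6) in basal cells, 1.52 CPM (1.12 to 2.02) in luminal cells and 0.124 CPM in the stromal gate, and it had 0 UMIs in the mural-like gate. Trp63 was at 74.1 CPM (62.5 to 87.3), against 1.59 CPM in luminal and 0.206 CPM in stromal cells. Igfbp2, which encodes a secreted binding protein of insulin-like growth factors, was at 378 CPM (351 to 407), against 2.73 CPM, 6.77 CPM and 3.81 CPM in luminal, stromal and mural-like cells. Myh11, the heavy chain of smooth muscle myosin, was at 312 CPM (287 to 337), against 4.25 CPM in luminal and 2.29 CPM in stromal cells, but the mural-like cells had 347 CPM (298 to 401). Markers of skin keratinocytes were mixed. Krt1 and Krt15 had 0 UMIs in basal cells, and Krt10 was at 8.29 CPM against 8.79 CPM in luminal cells, but Lgals7 was at 68.4 CPM against 6.85 CPM, and the 18 genes of the epidermal list summed to 961 CPM against 787 CPM. In the median cell that sum was 895 CPM in basal and 298 CPM in luminal cells, where the highest cell reached 27859 CPM. The rule genes themselves were at 1017 CPM for Krt5, 913 CPM for Krt14 and 209 CPM for Col17a1. In luminal cells they were at 0.635, 329 and 2.28 CPM.

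**Figure D1:**
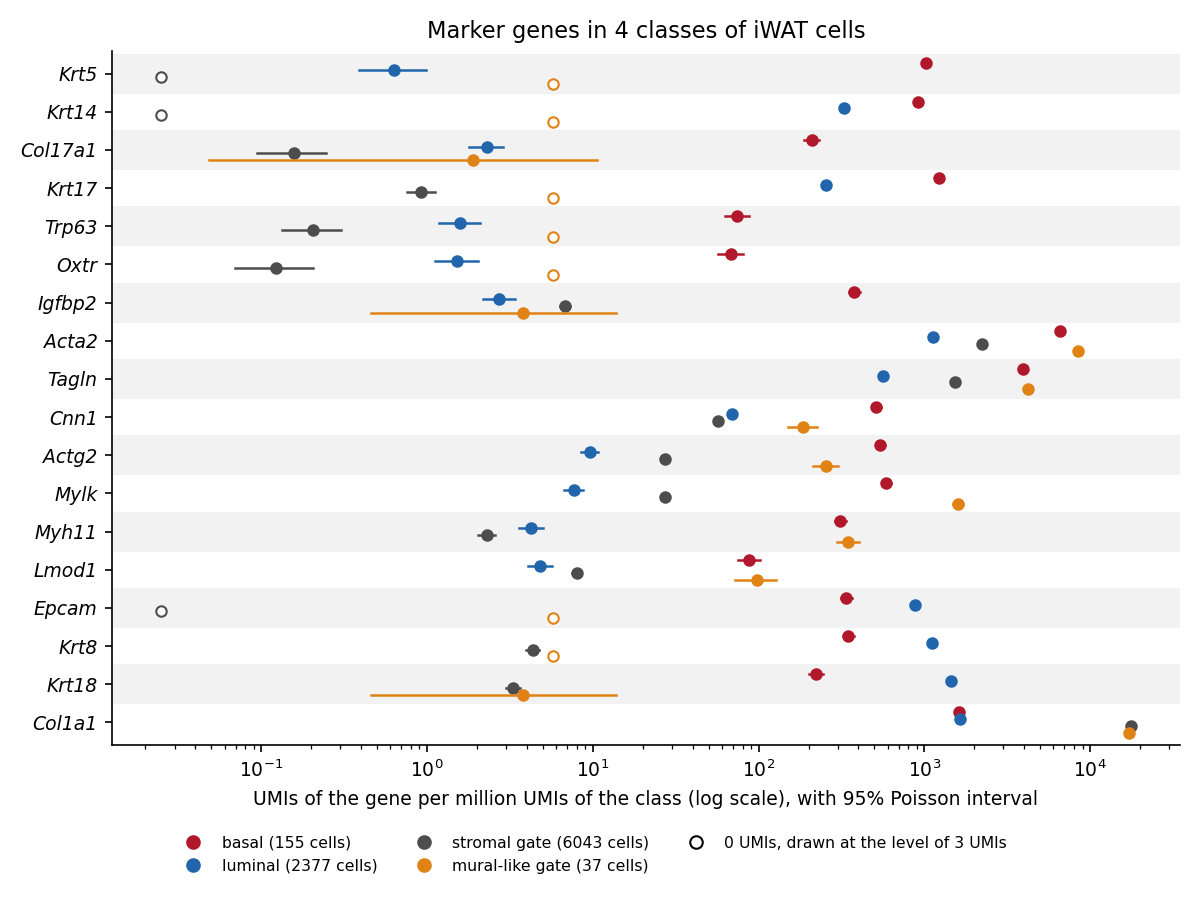
Levels of 18 genes in basal, luminal, stromal-gate and mural-like cells of the iWAT library, on a log axis in CPM, with 95% Poisson intervals; open circles are 0 UMIs. Trp63, Oxtr and Igfbp2 lie highest in basal cells, the smooth muscle genes from Acta2 to Lmod1 are high in basal and mural-like cells, and Epcam, Krt8 and Krt18 lie between the luminal and the stromal level.

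Markers of other cell types were examined in the same way. The 6 stromal markers summed to 2642 CPM in basal cells, 2556 CPM in luminal cells and 29300 CPM in the stromal gate. Over single basal cells the sum ran from 138 to 25831 CPM, with a median of 1000 CPM. Col1a1 in basal cells was 9.11% of its stromal level and Col3a1 6.81%, and in luminal cells they were 9.27% and 6.94%. Not all stromal genes had the higher share in basal cells. In basal and luminal cells Col5a2 was at 32.4% and 13.2%, Col6a1 at 22.2% and 12.4%, and Thy1 at 18.6% and 10.7%, whereas Dcn was at 5.59% and 7.65%, Lum at 2.80% and 5.65%, and Col6a3 at 6.59% and 6.85%, with counting intervals that overlapped for these 3 genes. Fn1, which both epithelial classes held above the stromal level, was at 187% and 403%. The part of free RNA in them was not tested. The defining mural gene Rgs5 had 2 UMIs in all 155 cells, or 1.04 CPM, against 558 CPM in the mural-like gate, and the 6 mural markers summed to 25.9 CPM. The immune markers summed to 4.66 CPM, with 3 of 4 at 0, and the endothelial markers to 3.11 CPM. Of the Schwann cell list, only Sox10 was present above 1 UMI, at 133 CPM against 105 CPM in luminal cells. Sox10 is also made in mammary epithelium.

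Across the transcriptome, 73 of 3698 genes (1.97%) were at least 4-fold higher in basal than in luminal cells and 32 (0.865%) were at least 4-fold lower. Over all 3698 genes, the log2 ratio had a median of -0.05. Against all other 29589 kept cells, 160 of 3900 genes (4.10%) were at least 4-fold higher and 147 (3.77%) at least 4-fold lower. These counts and shares include the genes of the membership rules, whose values the rules helped to set. Against luminal cells these were, for instance, Krt5 and Col17a1 among the higher genes and Krt18 among the lower. The list counts set beside these shares leave the rule genes out.

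The 12 genes with the highest ratio over luminal cells, among genes with a UMI in at least 20% of the basal cells after thinning, were Gpx2, Uts2b, Igfbp2, Rtn1, Il17b, Nipal4, Mylk, Myh11, Actg2, Trp63, Oxtr and Kcnmb1. Gpx2, a glutathione peroxidase of epithelia, was at 89.7 CPM (76.8 to 104) against 0.412 CPM, 217-fold higher (124 to 417). Only 20.6% of basal cells had a Gpx2 UMI after thinning. The basal cells, 0.521% of the cells, held 74.6% of all Gpx2 UMIs of the library. About 15.1% of the 31-base words at the Gpx2 3′ end also occur in other genes, most of all in a pseudogene, so some reads could have been lost or shared. Uts2b, which encodes a urotensin II-related peptide, was at 203 CPM against 1.24 CPM, 164-fold higher (118 to 234). Rtn1, a reticulon of the endoplasmic reticulum, was at 227 CPM against 1.78 CPM, 128-fold higher (96.6 to 172). Il17b, an interleukin-17 family cytokine, was at 52.9 CPM against 0.508 CPM, 104-fold higher (61.2 to 189). Kcnmb1, the beta subunit of the calcium-activated potassium channel of smooth muscle, was at 89.2 CPM against 3.17 CPM, 28.1-fold higher (21.8 to 36.3). In the mural-like gate Kcnmb1 was at 19.0 CPM.

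Against all other kept cells the 12 leading genes included Gpx2, Uts2b, Il17b, Rtn1, Trp63, Oxtr, Trim29, Vwa1, Tns4, Myh11 and Igfbp2. Tns4, a focal adhesion protein of the tensin family, was at 134 CPM against 1.85 CPM in the other cells, 72.7-fold higher (63.1 to 83.5). The 8 lowest were Sod3, P4ha3, Ccl7, Ndufa4l2, Lpl, Ccl2, Dcn and Twist2. These are largely transcripts of stromal or mural cells. Dcn, the proteoglycan decorin, was at 14.5 CPM in basal cells, 19.9 CPM in luminal cells and 259 CPM in the stromal gate. Ccl2, a monocyte chemokine, was at 23.3 CPM against 315 CPM in the other cells.

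Contractile genes were high in basal cells. Of 20 genes in the list, 16 reached 50 CPM, and 8 of the 16 were at least 4-fold higher in basal than in luminal cells, against 1.97% of all genes. None was 4-fold lower, and the median log2 ratio of the list was 2.18. Against all other kept cells 5 of 16 were at least 4-fold higher, beside 4.10% of all genes. The 8 genes were Acta2, Tagln, Cnn1, Myl9, Mylk, Actg2, Myh11 and Lmod1. Acta2, smooth muscle alpha-actin, was at 6557 CPM (6444 to 6673) in basal cells, 1129 CPM in luminal cells, 2216 CPM in the stromal gate and 8434 CPM in the mural-like gate. Single basal cells held between 0 and 315 Acta2 UMIs, with a median of 70. After thinning to 5000 UMIs per cell, 97.4% of basal cells had an Acta2 UMI, but so did 94.97% of stromal cells, and the medians were 30 and 9 UMIs. The presence of Acta2 transcript did not by itself set basal cells apart from cultured stroma.

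The other smooth muscle genes of the 8 separated basal from luminal cells more widely. Against all other kept cells, Tagln and Myl9 stayed within 4-fold, as Acta2 did. Mylk, the myosin light chain kinase that starts contraction, was at 590 CPM (557 to 626) against 7.65 CPM in luminal cells, 77.2-fold higher (67.1 to 89.1), and was at 27.3 CPM in the stromal gate. Actg2, the enteric gamma-actin, was at 542 CPM against 9.55 CPM, 56.7-fold higher (49.8 to 64.7). Myh11 was 73.3-fold higher (60.7 to 89.0). Basal cells held 18.6% of the Myh11 UMIs of the library. At least 3 Myh11 UMIs were found in 89 basal cells and in 237 cells outside the basal and luminal classes. Lmod1, leiomodin, which nucleates actin filaments in smooth muscle, was 18.2-fold higher (14.5 to 22.8). Myl9, the regulatory light chain, was 9.32-fold higher, Cnn1, calponin, 7.40-fold, and Tagln, transgelin, 6.96-fold. Cnn1 and Actg2 were also above their mural-like levels of 185 CPM and 255 CPM, whereas Mylk was below its mural-like level of 1600 CPM. The intermediate filament gene Des, which mural-like cells carried at 109 CPM, had 3 UMIs in all basal cells. The general actin-binding genes Cald1 and Tpm1 differed little between basal and luminal cells, at 1.53-fold (1.49 to 1.57) and 1.06-fold (1.04 to 1.09).

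The summed UMIs of Myh11, Cnn1, Actg2, Mylk and Lmod1 describe how many of the basal cells carried the program. These are the 5 contractile genes that were at least 4-fold higher in basal cells than in the other kept cells, so a contrast of their sum with those cells was fixed by the choice of genes. After thinning, 127 of 155 basal cells (81.9%) had at least 3 of these UMIs, with a median of 9 and a highest value of 44. The same held for 4.08% of luminal cells, 6.22% of stromal cells and 94.6% of mural-like cells. The classes overlapped: the highest luminal cell had 34 of these UMIs, the highest stromal cell 18 and the highest mural-like cell 38, and the mural-like median was 11.

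**Figure D2:**
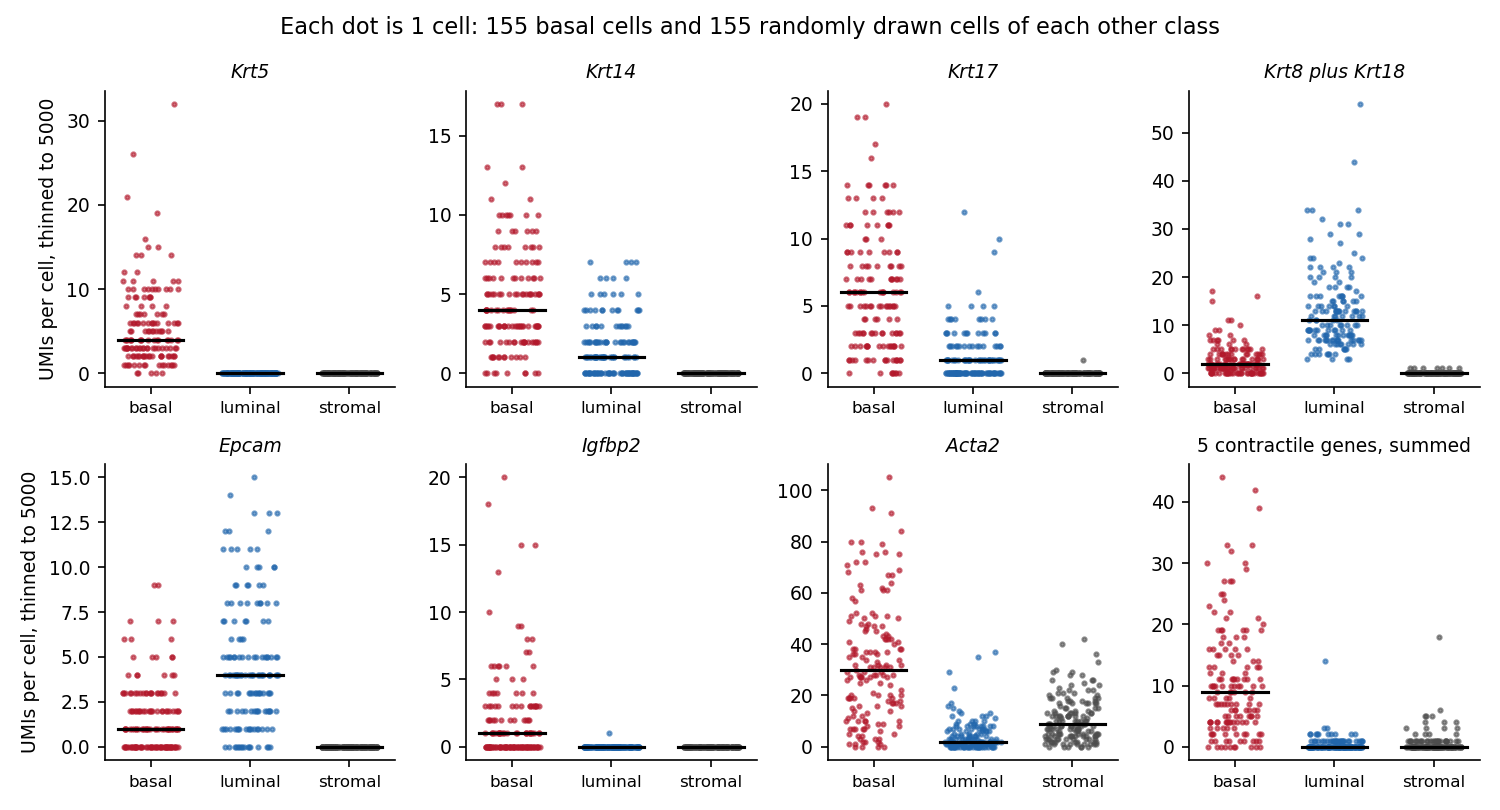
UMIs per cell after thinning each cell to 5000 UMIs, for 7 genes or gene pairs and the sum of Myh11, Cnn1, Actg2, Mylk and Lmod1, in the 155 basal cells and in 155 luminal and 155 stromal cells drawn at random; bars are medians. Krt5, Krt14, Epcam and the sum of Krt8 and Krt18 helped to choose the basal or luminal cells. Krt17, Igfbp2 and Acta2 were not used in these rules and were high in basal cells. The 5 genes of the contractile sum were picked as at least 4-fold higher in basal than in the other kept cells, so its contrast was fixed by that choice.

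Promoter sequence was read for the contractile genes because they were high together and because smooth muscle promoters are known for CArG boxes, the elements bound by serum response factor (CC, then 6 bases of A or T, then GG). Windows of 250 bases before the start site were available from RefSeq, placed on GRCm39, for 5 of the 8 genes. Those of the genes with a box and of Cnn1 are printed here 5′ to 3′, with boxes in capitals, allowing at most 1 G or C among the central 6 bases.
Acta2 (chr19:34232774-34233023, strand -): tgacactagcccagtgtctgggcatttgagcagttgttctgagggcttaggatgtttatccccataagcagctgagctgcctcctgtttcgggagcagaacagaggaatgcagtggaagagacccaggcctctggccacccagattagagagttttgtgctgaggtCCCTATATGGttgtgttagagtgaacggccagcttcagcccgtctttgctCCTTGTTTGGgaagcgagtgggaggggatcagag
Myl9 (chr2:156617134-156617383, strand +): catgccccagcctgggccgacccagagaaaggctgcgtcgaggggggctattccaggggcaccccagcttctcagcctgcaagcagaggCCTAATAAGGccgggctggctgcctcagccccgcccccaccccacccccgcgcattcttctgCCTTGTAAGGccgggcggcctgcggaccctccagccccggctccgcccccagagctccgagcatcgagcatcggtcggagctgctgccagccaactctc
Cnn1 (chr9:22010299-22010548, strand +): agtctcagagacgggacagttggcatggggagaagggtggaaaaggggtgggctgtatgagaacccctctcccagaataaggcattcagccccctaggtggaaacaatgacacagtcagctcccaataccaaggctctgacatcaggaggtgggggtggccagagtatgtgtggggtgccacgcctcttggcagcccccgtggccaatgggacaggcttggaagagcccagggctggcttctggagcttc

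Acta2 held 2 such boxes, 84 and 34 bases before the start site counted to the first base of the box, and Myl9 held 2, at 161 and 99 bases. The first Myl9 box had A or T only. Cnn1, Mylk and Lmod1 held none in the window. Searched on both strands in 300-base windows that also take in 50 bases after the start, the box with at most 1 G or C occurred in 9.98% of 32851 RefSeq windows and in 3 of 19 windows of the contractile list, and the strict box in 1.63% and in 2 of 19. The E-box CANNTG occurred in 72.3% of all windows and 16 of the 19. These counts describe letters in the windows only.

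The basal keratin and adhesion genes came next. Krt17, a keratin of basal and activated epithelia that the rule did not use, was at 1223 CPM (1174 to 1274) in basal cells and 256 CPM in luminal cells, 4.78-fold higher (4.56 to 5.00). It had a UMI in 94.8% of thinned basal cells, 50.6% of luminal cells and 0.414% of stromal cells. Krt14 and Krt17 lie in the same region of chromosome 11 (chr11:100093988-100098490 and chr11:100147040-100151974, both on the minus strand). Of the 31-base words at the Krt14 3′ end, 15.5% occur in other genes, most of all in Krt17, so a part of their reads may not have been told apart. Krt5 lies on chr15:101615505-101621346 and had no such overlap.

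All 8 measured genes of the hemidesmosome and laminin-332 list other than Col17a1 had a ratio over luminal cells above 1, with the intervals of Dst and Plec including 1, and 2 of 8, Itga6 and Lama3, were past 4-fold, beside 1.97% of all genes. Hemidesmosomes anchor basal cells to the basement membrane through the integrin pair encoded by Itga6 and Itgb4, and laminin-332, to which Lama3 and Lamb3 contribute chains, is its ligand. Itga6 was at 433 CPM (404 to 463) against 93.2 CPM, 4.64-fold higher (4.30 to 5.02), and Itgb4 at 200 CPM against 121 CPM, 1.65-fold (1.48 to 1.83). Lama3 was at 307 CPM against 57.2 CPM, 5.37-fold higher (4.89 to 5.90), and Lamb3 was 3.37-fold higher. At the 3′ end of Lama3, 44.1% of 31-base words occur in other genes, so its value is uncertain. In the stromal gate Lama3 was at 0.996 CPM and Lamb3 at 1.38 CPM. The cytoskeletal linkers Dst and Plec were near their luminal levels, at 1.11-fold (0.996 to 1.23) and 1.04-fold (0.925 to 1.17).

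Among junction genes, Cdh3, the P-cadherin of basal cells, was at 109 CPM against 5.77 CPM, 18.9-fold higher (15.5 to 23.2), while Cdh1, E-cadherin, was at 149 CPM against 312 CPM. None of the 7 desmosome genes at 50 CPM or more was past 4-fold in either direction against luminal cells, beside 1.97% of all genes that were higher and 0.865% that were lower.

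Basement membrane genes had 2 of 12 members past 4-fold, Sparc and Hspg2, beside 1.97% of all genes, with a median log2 ratio of 0.99. Sparc, a collagen-binding matrix protein, was at 7816 CPM in basal cells, 1236 CPM in luminal cells and 7837 CPM in the stromal gate. Hspg2, perlecan, was at 124 CPM, 29.4 CPM and 141 CPM. Postn, periostin, was at 1958 CPM, 212 CPM and 1677 CPM. The basal level of Sparc was thus 99.7% of the stromal level and that of Postn 117%, whereas for Col1a1 the share was 9.11%. In luminal cells the shares were 15.8%, 12.6% and 9.27%. Sparc had a UMI in every basal cell after thinning. Col4a1, the collagen IV chain, was at 503 CPM, 152 CPM and 973 CPM.

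Of 16 transcription factors in the basal list, 9 reached 50 CPM in basal or luminal cells. Of these 9, 4 were at least 4-fold higher than in luminal cells, beside 1.97% of all genes. Trp63 was 46.7-fold higher (33.6 to 65.8), and 55 of 155 basal cells (35.5%) had a Trp63 UMI after thinning, against 0.883% of luminal and 0.0993% of stromal cells. Id4, an inhibitor of basic helix-loop-helix factors, was at 104 CPM against 16.6 CPM, 6.25-fold higher (5.28 to 7.37), and was at 126 CPM in mural-like cells. Snai2, a repressor of epithelial genes, was at 63.8 CPM against 11.3 CPM, but the stromal gate had 70.1 CPM. Tfap2c was 4.28-fold higher (3.48 to 5.22). Sox9 and Sox10 differed little between the epithelial classes, at 1.14-fold (1.05 to 1.24) and 1.27-fold (1.11 to 1.44). Below the 50 CPM floor, Irx4 had 50 UMIs in basal cells and 2 in the luminal cells, although luminal cells held more UMIs in all by far. It was named after its values were seen.

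**Figure D3:**
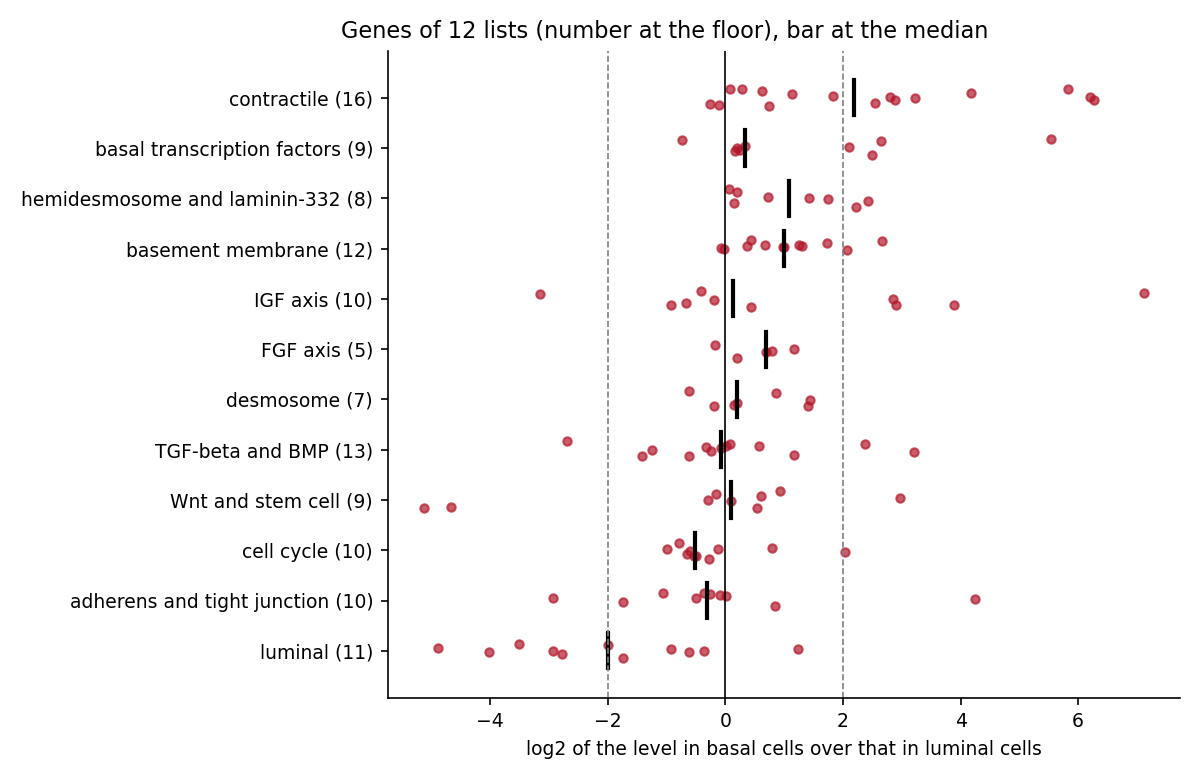
Log2 ratio of the level in basal over luminal cells for genes of 12 lists at 50 CPM or more, 1 dot per gene, with the number of genes in parentheses and genes of the membership rules left out; dashed lines mark 4-fold and black bars the list medians. The contractile median is 2.18 and the luminal median -2.00, while the desmosome, IGF axis and Wnt medians lie close to 0.

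The oxytocin list was split. Oxtr was 44.6-fold higher in basal than in luminal cells (31.8 to 63.4), and Edn1, which encodes the constrictor peptide endothelin-1, was at 233 CPM against 36.9 CPM, 6.31-fold higher (5.64 to 7.04). The other 5 genes of the list at 50 CPM or more were within 4-fold, so that 2 of 7 were called higher and 0 lower, beside 1.97% and 0.865% of all genes. Among the 5 was Gnaq, the G protein alpha subunit that the oxytocin receptor couples to, at 84.0 CPM against 72.0 CPM. Oxtr was sparse: 34 of 155 thinned basal cells (21.9%) had a UMI, against 0.757% of luminal and 0.0331% of stromal cells. Without thinning the share of basal cells was 34.8%. The basal cells held 131 of the 559 Oxtr UMIs of the library (23.4%), luminal cells held 48, and the remaining 380 lay in 211 other cells, of which 144 had Epcam UMIs and 66 had Pdgfra UMIs. Among those other cells, 35 had at least 3 Oxtr UMIs, against 16 of the basal cells. The 35 cells had Acta2 at 4360 CPM, Myh11 at 286 CPM, Krt14 at 286 CPM, Trp63 at 34.7 CPM and Krt5 at 69.3 CPM. They also had Lcn2 at 1790 CPM, Wfdc18 at 871 CPM, Epcam at 416 CPM, Col1a1 at 1920 CPM and Pdgfra at 41.6 CPM.

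Genes of the insulin-like growth factor (IGF) axis went in both directions. Igf1, the growth factor, was at 162 CPM (144 to 181) in basal cells against 21.7 CPM in luminal and 14.6 CPM in stromal cells. The binding protein genes Igfbp2, Igfbp3 and Igfbp5 were 139-fold (111 to 175), 14.7-fold (13.1 to 16.5) and 7.24-fold (6.56 to 8.00) higher than in luminal cells. Igfbp4 went the other way, at 82.4 CPM against 734 CPM in luminal cells, which was 8.90 times the basal level, although 22.8% of the 31-base words at its 3′ end are shared with other genes. The receptor gene Igf1r was alike, at 64.8 CPM and 74.4 CPM. Of the 10 genes of the list at 50 CPM or more, 4 were at least 4-fold higher and 1 at least 4-fold lower, beside 1.97% and 0.865% of all genes. Against all other kept cells, 3 of 10 (Igf1, Igfbp2 and Igfbp3) were at least 4-fold higher, beside 4.10% of all genes. Igfbp5 stayed within 4-fold there, and none was 4-fold lower, beside 3.77%. The 17 genes of the list summed to 3538 CPM in basal, 2562 CPM in stromal and 5872 CPM in mural-like cells. Igfbp2 differed from cell to cell: 53.5% of thinned basal cells had a UMI, the median was 1 and the highest 20. A UMI was found in 0.631% of thinned luminal and 1.41% of stromal cells, and the highest stromal cell had 25. Without thinning, basal cells held 730 of the 4100 Igfbp2 UMIs of the library (17.8%). Outside the basal and luminal classes, 841 cells had a UMI, 532 of them with Pdgfra UMIs. At least 3 UMIs were found in 307 of those other cells and in 67 basal cells.

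The FGF axis is of interest because the cultures received FGFs. The receptors Fgfr1 and Fgfr2 were measured in basal cells at 162 CPM (144 to 181) and 81.4 CPM (69.1 to 95.1). Fgfr1, which most cells of mesenchymal origin carry, was at 306 CPM in the stromal gate, and Fgfr2, whose epithelial isoform receives stromal ligands, was at 39.2 CPM there. Fgf2 transcript was at 34.2 CPM in basal cells, 31.6 CPM in luminal cells and 315 CPM in the stromal gate, and Fgf7, a ligand made by stroma for epithelium, at 5.70, 6.60 and 116 CPM. The feedback gene Dusp6 was at 97.4 CPM and 110 CPM in basal and luminal cells. None of the 5 genes of this list at 50 CPM was past 4-fold against luminal cells, where 1.97% of all genes were higher and 0.865% lower, so a count of 0 is no result about the list. Against the other kept cells, 1 of 9 (Fgfrl1) was at least 4-fold higher, beside 4.10% of all genes, and 3 (Fgf2, Fgf7 and Spry1) were lower, beside 3.77%. The isoforms of the receptors cannot be told apart in these counts, and the pooling of treatments means that these are averages over treated and untreated cultures.

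Several signalling genes of other families were sparse. Bmp7 was at 36.3 CPM against 0.761 CPM in luminal cells, Wnt10a at 24.4 CPM against 1.33 CPM, and the Notch ligand gene Jag2 at 22.8 CPM against 2.66 CPM. All 3 were below 50 CPM and were named after their values were seen. Basal cells held 32.3% of the Bmp7 UMIs and 33.1% of the Wnt10a UMIs of the library. Dkk3 was 7.85-fold higher than in luminal cells (7.16 to 8.60) and Fst, follistatin, 5.17-fold (4.38 to 6.07), though 27.6% of 31-base words at the Dkk3 3′ end are shared with other genes. Wnt7b was at 2.07 CPM in basal and 52.5 CPM in luminal cells. Of the 9 genes of the Wnt and stem cell list at 50 CPM or more, 1 was past 4-fold higher and 2 past 4-fold lower, and of 13 in the list of transforming growth factor beta and bone morphogenetic proteins 2 and 1, beside 1.97% and 0.865% of all genes.

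**Figure D4:**
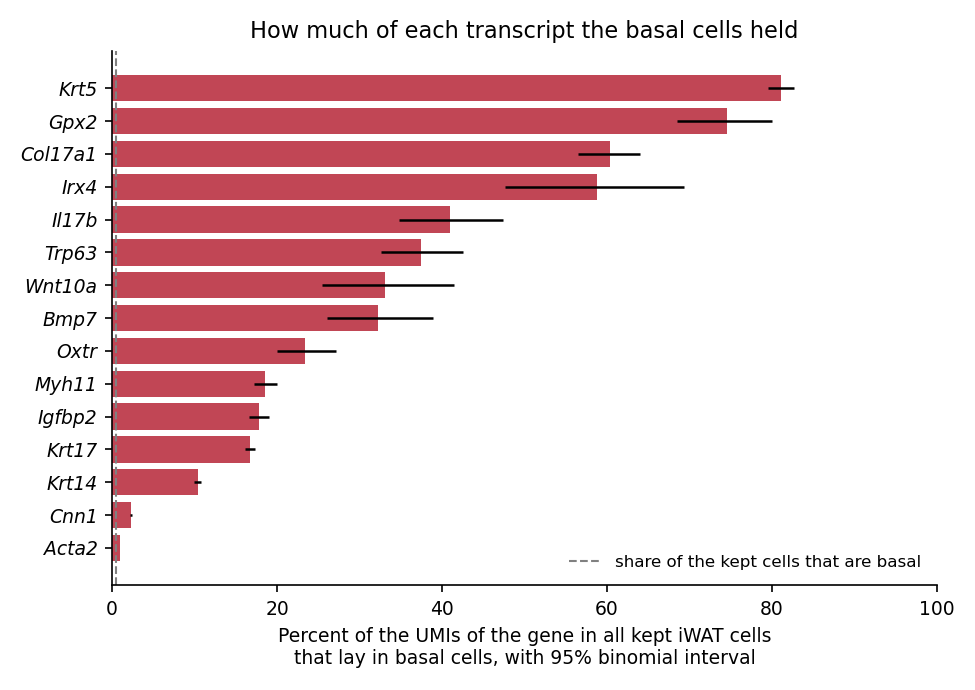
Percent of all UMIs of a gene in the kept iWAT cells that lay in the 155 basal cells, with exact 95% binomial intervals; the dashed line is the share of kept cells that are basal, 0.521%. Krt5 (81.1%) and Col17a1 (60.3%) helped to choose the cells, Gpx2 (74.6%) and Trp63 (37.4%) did not, and Acta2 (0.930%) lay mostly in other cells. Gpx2 and Il17b were named for their high ratios in these data, and Irx4, Wnt10a and Bmp7 after their values were seen. The high shares of these genes therefore follow from how they were chosen. Basal cells held 1929309 of the 501759241 UMIs of the kept cells, a smaller share than their share of cells.

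Most luminal genes were lower in basal cells. Of 11 luminal list genes at 50 CPM or more, other than those of the membership rules, 6 were at least 4-fold lower and none 4-fold higher, beside 0.865% of all genes that were lower, and the median log2 ratio was -2.00. Csn3, kappa-casein, was at 38.9 CPM in basal cells and 634 CPM in luminal cells, 16.3 times as high. Aldh1a3, a retinaldehyde dehydrogenase of luminal progenitors, was at 5.70 CPM and 169 CPM, Krt19 at 17.1 CPM and 194 CPM, and the whey protein-like genes Wfdc2 and Wfdc18 at 50.3 and 313 CPM against 344 and 1251 CPM. Wfdc18 lay at the 4-fold limit, at 4.00 times. Lcn2, the iron-binding lipocalin of inflamed epithelium, was the 1 gene of the 11 that was higher in basal cells, at 970 CPM against 411 CPM, 2.36-fold (2.25 to 2.48). At least 3 UMIs of Wfdc18 and Lcn2 together were found in 44.5% of thinned basal cells and 40.6% of luminal cells. Foxa1, a factor of hormone-sensing luminal cells, had 0 UMIs in basal cells and 682 in luminal cells. Among all genes that met the naming rule, list genes included, the lowest ratios were those of Stmn2, Tspan8, Aldh1a3, Wnt7b, Ntn1, Mboat1, Csn3 and Smim22. Stmn2, a microtubule regulator, had 4 UMIs in basal cells, or 2.07 CPM, against 116 CPM, and Ntn1, netrin 1, was at 10.9 CPM against 184 CPM.

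Epcam, Krt8 and Krt18 were lower by their place in the rule for luminal cells, at 337, 347 and 221 CPM against 875, 1118 and 1451 CPM. They were far above the stromal gate, where Epcam was 0 by rule and Krt8 was at 4.33 CPM. Of the basal cells, 28 had no Epcam UMI and 9 had no Krt8 or Krt18 UMI, 110 had 1 to 9 of these keratin UMIs, and 36 had 10 or more. In 31 cells both luminal limits were met. These 31 cells had a median of 15141 UMIs, against 10641 in the other 124. They carried Acta2 at 8093 CPM, Mylk at 751 CPM, Myh11 at 388 CPM and Trp63 at 76.7 CPM, and the other 124 cells 6046, 537, 286 and 73.2 CPM. Smooth muscle transcripts were thus not lower in the cells with both keratin sets. Oxtr was at 29.0 CPM in the 31 cells and 80.8 CPM in the others, on 14 and 117 UMIs.

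Epidermal genes were split between the classes. Sfn, the stratifin of stratified epithelia, was at 817 CPM against 303 CPM in luminal cells, and Lgals7, a galectin of stratified epithelia, at 68.4 CPM against 6.85 CPM, 9.98-fold higher (7.98 to 12.5). Sprr1a, a cornified envelope precursor, was at 16.6 CPM in basal cells and 449 CPM in luminal cells. Of the 18 genes of the epidermal list, 7 had 0 UMIs in basal cells and 3 reached 50 CPM.

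Cycling transcripts were found in fewer basal than luminal or stromal cells. At least 1 UMI among the mitosis genes Ube2c, Birc5, Ccnb1, Cdk1, Top2a and Mki67 was found in 34.2% of thinned basal cells, 46.4% of luminal cells, 74.3% of stromal cells and 32.4% of mural-like cells. At least 3 such UMIs were found in 12.9%, 18.2%, 50.6% and 21.6%. Top2a was at 57.5 CPM (47.3 to 69.3) in basal and 115 CPM in luminal cells. Of 10 cell cycle genes at 50 CPM or more, only Ccnd2, cyclin D2, was past 4-fold, beside 1.97% of all genes that were higher and 0.865% lower. It was at 542 CPM against 133 CPM, and in the stromal gate it was at 800 CPM. Free RNA of cycling stromal cells reaches other classes at an unknown rate, and its part in the share with 1 UMI was not tested.

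Differences among the basal cells were measured as variance over mean. Of 1683 genes with at least 0.5 UMIs per thinned cell on average, 159 (9.45%) had a variance of at least 2 times the mean, where counting alone gives a ratio of about 1, and the median ratio was 1.19. The 10 highest were Prl2c2, Lcn2, mt-Co1, Col1a1, Tmsb4x, Igfbp5, Acta2, Actb, Mmp9 and Fn1. Several of these were about as variable among luminal cells, where the ratio was 28.3 for Col1a1 against 28.4 in basal cells, 21.3 against 22.2 for Tmsb4x, 13.3 against 13.2 for Mmp9 and 12.6 against 14.1 for Actb. Lcn2 had a ratio of 36.3 against 16.9 in luminal cells, with a median of 1 UMI and a highest cell of 119. Igfbp5 had a ratio of 21.1 against 12.8, a UMI in 25.8% of the cells and a highest cell of 40. Their means per thinned cell were also higher in basal cells, at 5.25 against 2.11 UMIs for Lcn2 and 1.58 against 0.213 for Igfbp5. The ratio can grow with the mean, so these values do not rank the spread of the classes. Mmp9, a gelatinase, was found in 23.9% of the cells, with a highest cell of 29. Prl2c2, a prolactin family gene, lay in 6 cells with up to 73 UMIs. Of the 31-base words at its 3′ end, 95.7% occur in other genes, most of all in Prl2c3, so these genes cannot be told apart. Col1a1 had a median of 3 UMIs, a 90th percentile of 17.4 and a highest cell of 76. In the stromal gate the 10th percentile was 34, so the upper tail of the basal cells reached the stromal range. Whether those cells were mixed with stromal cells was not tested.

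Contractile genes varied together from cell to cell. Over the 155 thinned cells, Spearman's rho with Acta2 was 0.81 for Tagln, 0.72 for Actg2, 0.66 for Cnn1, 0.60 for Mylk, 0.60 for Myl9 and 0.36 for Myh11. In the 104 cells that could be thinned to 10000 UMIs it was 0.87, 0.78, 0.79, 0.69, 0.71 and 0.59. Acta2 and Epcam had a rho of -0.26, and -0.32 at the higher depth, whereas Acta2 and the sum of the luminal keratins Krt8 and Krt18 had a rho of 0.27. Krt14 had a rho of 0.48 with Krt5 and 0.54 with Krt17. Oxtr was not aligned with this axis: its rho was 0.14 with Acta2 and -0.07 with Krt5, but 0.46 with Lcn2 and 0.54 with Igfbp5. These cells share a library and the treatments are mixed in it, and the gene pairs were chosen after their values were seen, so the coefficients are descriptions.

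**Figure D5:**
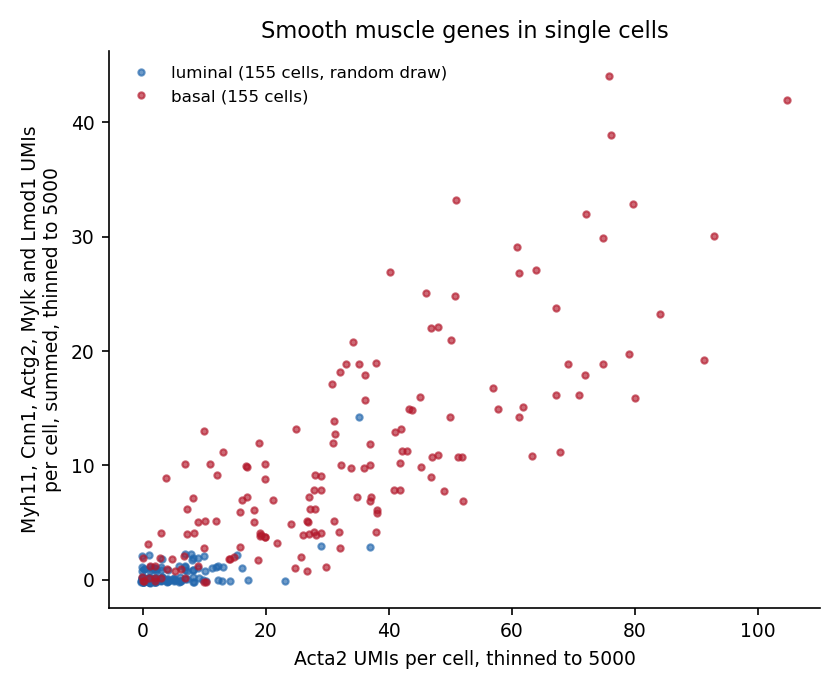
Acta2 UMIs against the summed UMIs of Myh11, Cnn1, Actg2, Mylk and Lmod1 in single cells thinned to 5000 UMIs, for the 155 basal cells and 155 luminal cells drawn at random, with small jitter. Basal cells spread from near 0 to 105 Acta2 UMIs and 44 contractile UMIs, and the luminal cells sit near the origin with few exceptions.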

How the data were processed

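Raw UMI counts per gene and cell, as deposited, were used for 1 iWAT and 1 iBAT library. Per the labels and published methods, the authors made BD Rhapsody whole-transcriptome libraries and processed reads on a hosted pipeline. The submitters' processing notes name mm39 and Seurat 5.0.0. The annotation version and the handling of multi-mapped reads and of strand are not given in the sources used here. The counts carry no normalization. The iWAT library held 503611913 UMIs in 29962 barcodes (median 16204 UMIs in kept cells) and the iBAT library 815235820 in 28636. Barcodes are cell index numbers, and 8 numbers occur in both libraries.

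Counts were summed per class and scaled to CPM in Python 3.11.15 (numpy 2.4.6, scipy 1.17.1). Intervals are exact Poisson, Clopper-Pearson or conditional binomial at 95%. UMIs per cell were thinned to 5000 without replacement where shares, spread or correlations are given, and 0 cells were shallower. A count of 0 was taken to allow 3 counts. Scrublet (scanpy 1.11.5, expected doublet rate 0.08) marked doublets, which were kept. Named genes were the 12 highest and 8 lowest ratios per comparison (at least 50 CPM and a UMI in at least 20% of thinned cells of the high class, without the rule genes and near-identical families), the list genes described by role, and the 10 highest variance to mean ratios. A few genes that this rule names are not reported here. The members, the 31 gene lists and the comparisons were chosen with earlier results of these data known. Gene positions and shared 31-base words come from GENCODE M39 on GRCm39, and promoter windows from RefSeq. The ratio and call steps were tested on simulated data. With 1 library per depot, cells are not replicates, and no test was made. Alternatives are given in the closing section.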

Additional observations from a re-analysis of the deposited data

Results flagged for a closer look

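The iBAT library entered no comparison of levels, and 4 of the 6 marker genes had more UMIs there than the 3 that a count of 0 allows, without any cell that met the rule. In kept iBAT cells, Col17a1 had 235 UMIs, with at most 2 UMIs of Krt14 and Col17a1 together in any cell. Oxtr had 97 UMIs, Myh11 2941 and Igfbp2 5737. Krt5 and Krt14 stayed at 3 UMIs each.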

How the results depend on the processing

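The share of basal cells was 0.588% with at least 2 Krt5 UMIs, 0.585% with up to 1 Pdgfra UMI, 0.518% without likely doublets and 0.514% with a filter of over 500 genes and under 15% mitochondrial UMIs, against 0.521% as reported. It was 0.235% with at least 10 Krt5 UMIs, 0.299% with at least 10 UMIs of Krt14 and Col17a1, and 0.417% without the cells that met both luminal limits. Under the gate, scaling and thinning alternatives the genes at least 4-fold higher than in luminal cells numbered 64 to 80 and those lower 31 to 40, and against the other kept cells 148 to 188 and 133 to 182. The floor moved these counts by construction, since it sets how many genes are counted. Higher and lower than in luminal cells were 181 and 109 genes at a floor of 10 CPM, 28 and 9 at 200 CPM, and 717 and 234 with no floor beyond 3 UMIs. Against the other kept cells they were 375 and 364, 56 and 44, and 1466 and 661. Among lists, the count of basement membrane genes higher than in luminal cells was 1 with at least 10 Krt5 UMIs and 1 at a floor of 200 CPM. The count of higher basal transcription factors was 0 at 200 CPM and 7 with no floor. The count of lower luminal list genes was 13 at 10 CPM, 3 at 200 CPM and 13 with no floor. The floor also sets how many list genes are counted, so these counts are no result about the lists. For the 46 genes recomputed singly under 11 gates and scalings, all 506 log2 ratios kept their sign and 88 left the counting interval of the reported value. Most of these genes were named for large ratios and the alternatives reuse the same library, so the kept signs say little. TMM scaling with edgeR moved the median of all genes over luminal cells from -0.05 to -0.06.

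Depth set the shares of basal cells with a UMI. At 10000 UMIs per cell, which 104 basal cells reached, the share was 79.8% for Myh11, 65.4% for Igfbp2 and 46.2% for Trp63. Without thinning, it was 34.8% for Oxtr, 84.5% for Myh11, 69.0% for Igfbp2 and 52.3% for Trp63. Genes with a variance of at least 2 times the mean numbered 393 at 10000 UMIs per cell, of 3348 that reached the minimum mean. Every value rests on 1 library of pooled treatments, and genes with few UMIs in 155 cells have wide intervals. No paired analysis was possible because each depot has 1 library and no comparison came from a test.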
